A study of Mus musculus with 15 samples.

Results

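Bone morphogenetic proteins (BMPs) are secreted ligands that drive stromal cells towards bone. They bind type I and type II receptor kinases at the cell surface, which phosphorylate SMAD1, SMAD5 and SMAD9, and these enter the nucleus with SMAD4 and switch on target genes such as the Id genes. Secreted antagonists such as noggin and gremlin hold the ligand away from its receptor, and inhibitory SMADs, themselves targets of the pathway, shut it down from within. The 10 genes described here cover these steps and were chosen by symbol among the 56832 genes counted: the ligands Bmp2, Bmp4 and Bmp6, the type I receptor Bmpr1a, the secreted antagonists Grem1 and Nog, the inhibitors Bambi and Smad6, and the targets Id1 and Id3. All 10 passed the filter on low counts that left 17204 genes.

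RNA was sequenced from cultures of bone marrow mesenchymal stromal cells (MSCs) of mice at 16 weeks of age that carried the taurine transporter gene (WT, TauT+/+) or lacked it in every tissue (KO, TauT-/-), all on a C57BL/6J background. Cells from long bones were grown on collagen at 2% oxygen without ascorbic acid or an inducer of bone or fat, and MSCs were then enriched. The labels give magnetic sorting for cells without the blood marker CD45, and the study's methods give magnetic depletion of CD45, Ter119 (red cell) and CD31 (endothelial) cells or flow sorting. The 15 libraries were labelled as 4 male WT, 4 male KO, 3 female WT and 4 female KO, and the labels do not say whether each came from its own mouse, so that p-values measure only the spread between these libraries. Levels are in CPM, which is the count divided by the TMM-scaled library size, and differences as the log2 fold change of KO against WT with its standard error (SE), from edgeR's quasi-likelihood test with sex label and genotype in the model and Benjamini-Hochberg adjustment over all genes tested.

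Several libraries limit what follows. Male-labelled libraries held 69764291 to 101575071 counts and female-labelled ones 12761107 to 20781070, so depth and sex label cannot be told apart. Sex-linked genes went against the label in 3 libraries (male WT 1, male KO 1 and female WT 3). Male KO 1 was nearly identical to female KO 1, and male WT 1 to female WT 1: the spread of their log2 ratios over genes was 0.104 and 0.115, against 0.289 for the next closest of 105 pairs. Both pairs still differed by more than counting noise (chi-square per degree of freedom 10.3 and 12.4). The same measure was 291 for male WT 3 with male KO 3 and 90.7 for female WT 1 with female WT 2. Both libraries of each near-identical pair were kept in the 15. Whether a pair came from the same culture was not tested, and if it did the p-values count that culture more than once. The deleted gene, Slc6a6, had 592 to 2591 CPM in WT and 401 to 1521 CPM in KO libraries (log2 fold change -0.97, SE 0.36, edgeR adjusted p = 0.125), so the genotypes overlapped and are named by their labels.

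Macrophage genes stood beside every genotype difference below. The 13 macrophage markers summed to 1346 to 9385 CPM in WT (median 7928) and 6443 to 20053 CPM in KO libraries (median 14979), in cultures sorted against CD45, Ter119 and CD31 or by flow. All 13 had a log2 fold change above 0, with a median of 0.91, and Cd68 passed the test (1.46, edgeR adjusted p = 0.0445). Of all 17204 genes tested, 8316 were above 0 and 0.546% were called higher. Without the 3 libraries against their sex label 0 genes passed, so Cd68 did not pass there. Ptprc, which encodes CD45, had 27.9 to 179 CPM in WT and 114 to 370 CPM in KO libraries. The 12 MSC markers summed to 5313 to 26994 CPM in WT (median 16094) and 2603 to 17282 CPM in KO libraries (median 5418). Their log2 fold changes had a median of -0.30, and 0 of them passed the test. Much of the sum was Cxcl12 (median 11960 CPM in WT and 1279 CPM in KO libraries). A log2 fold change above 0 was found for 4 of the 12: Cd44 (0.77), Nt5e (1.56), Ly6a (0.21) and Itgb1 (0.16). The others were below 0: Eng (-1.74), Cxcl12 (-1.45), Pdgfra (-1.45), Thy1 (-0.98), Pdgfrb (-0.59), Prrx1 (-0.55), Lepr (-0.058) and Itgav (-0.015). Lepr, a defining gene of marrow stroma, reached only 2.35 CPM in any library, whereas Pdgfrb had at least 256 CPM in each. The 7 endothelial markers summed to 2.38 to 19.97 CPM in WT and 7.68 to 157 CPM in KO libraries, with Cldn5 and Emcn at or near 0. The largest medians among them were those of Flt1 (1.03 CPM in WT and 15.2 CPM in KO libraries) and Kdr (3.90 and 11.4 CPM). Pecam1 (0.255 and 0.147 CPM, log2 fold change -0.19) and Cdh5 (0.459 and 0.426 CPM, 0.089) had low medians in both genotypes. Of the 5 endothelial markers tested 4 were above 0, and 0 passed the test. The 4 erythroid markers stayed at or below 0.115 CPM in sum. The part of these cells in the values of BMP genes was not tested, and in bulk RNA fewer cells of a type and less RNA per cell cannot be told apart.

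**Figure D1:**
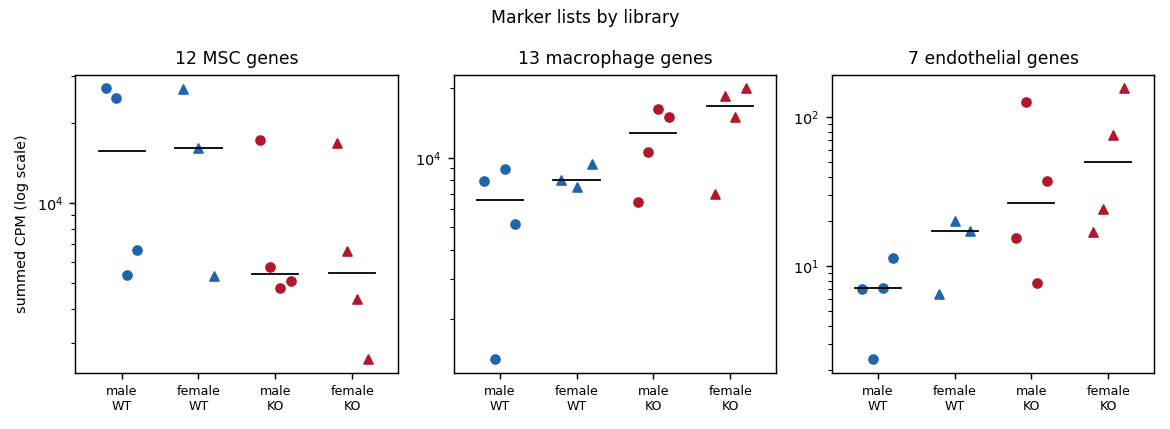
Summed CPM (log scale) of the marker lists of MSCs, macrophages and endothelial cells in each library, by sex label and genotype. Circles are male-labelled and triangles female-labelled libraries, WT in blue and KO in red, and bars are group medians. Macrophage sums had a median of 7928 CPM in WT and 14979 CPM in KO libraries, and MSC sums 16094 and 5418 CPM.

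SMADs activated by BMPs are known to bind a GC-rich core that lies a fixed distance from a GTCT site, together called the BMP response element. The letters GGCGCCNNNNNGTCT and the core GGCGCC were searched on both strands from 2000 bases before to 500 bases after the start site of the canonical transcript of 21751 protein-coding genes (GENCODE M39 on GRCm39). Each full element contains a core, so the matches overlap. The full element was found in 60 windows (0.276%) and the core in 37.8%. None of the 10 genes held the full element in this window (0 of 10) and 8 of 10 held the core, while among the other 55 genes of a BMP pathway list 1 held the full element and 31 the core (56.4%). The stretches around the core before Id1 and Smad6, the pair of genes among the 10 with an unadjusted p under 0.05, and around the element before Id2 are printed to show the letters that were searched. Each is written 5′ to 3′ in the direction of its gene with 30 flanking bases on either side, and capitals mark the fixed letters.
Id1, chr2:152577042-152577107, plus strand: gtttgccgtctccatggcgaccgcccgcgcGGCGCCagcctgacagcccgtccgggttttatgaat
Smad6, chr9:63930308-63930373, minus strand: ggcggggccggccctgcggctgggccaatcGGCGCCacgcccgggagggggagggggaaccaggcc
Id2, chr12, minus strand, with the element at 25148853 to 25148867: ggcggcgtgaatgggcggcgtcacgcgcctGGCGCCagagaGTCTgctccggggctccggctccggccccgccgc
The core began 1093 bases before the start site of Id1 and 932 bases before that of Smad6, and neither lay in an annotated exon. Between the core and the nearest GTCT on either strand lay 19 bases for Id1 and 177 for Smad6, against the 5 bases that the searched element allows. The letters searched are one strict definition, and the printed stretch before Id1 belongs to a part of its promoter that is known to respond to BMP and is used in reporters. A match is a description of letters and not of binding, and Id2 was named because it was the gene of the list with the full element, after its values had been seen.

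In WT cultures the 2 Id genes and the inhibitory SMAD had the highest levels per length. In CPM per kilobase of exon, the WT median was 125 for Id3, 33.5 for Smad6 and 30.2 for Id1. Grem1 had 23.7, Bmpr1a 14.9 and Bmp4 12 on the same scale. Nog had 5.24, and Bmp6, Bambi and Bmp2 had 1.42, 0.744 and 0.556. Each pair of neighbours in this order overlapped across WT libraries, Id3 (33.2 to 289) and Smad6 (8.06 to 56.7) included.

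All 10 genes had a lower fitted level in KO than in WT cultures, and none passed the test at an adjusted p of 0.05. The median of their log2 fold changes was -0.63, against -0.015 over all genes tested, of which 51.7% were below 0. edgeR called 0 of 10 (background 1.3% of genes in either direction, 0.75% lower and 0.546% higher), and 2 of 10, Id1 and Smad6, had an unadjusted p under 0.05 and a lower level, as had 13% of all genes. DESeq2 called 0 of 10 (background 6.43% lower) with 2 at an unadjusted p under 0.05, and limma voom with sample quality weights called 0 of 10 (background 4.12% lower) with 4. The genotypes overlapped for each of the 10, and all WT libraries lay above all KO libraries for 0.436% of genes tested. The 10 genes share their libraries, so the shared sign is given as a count.

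**Figure D2:**
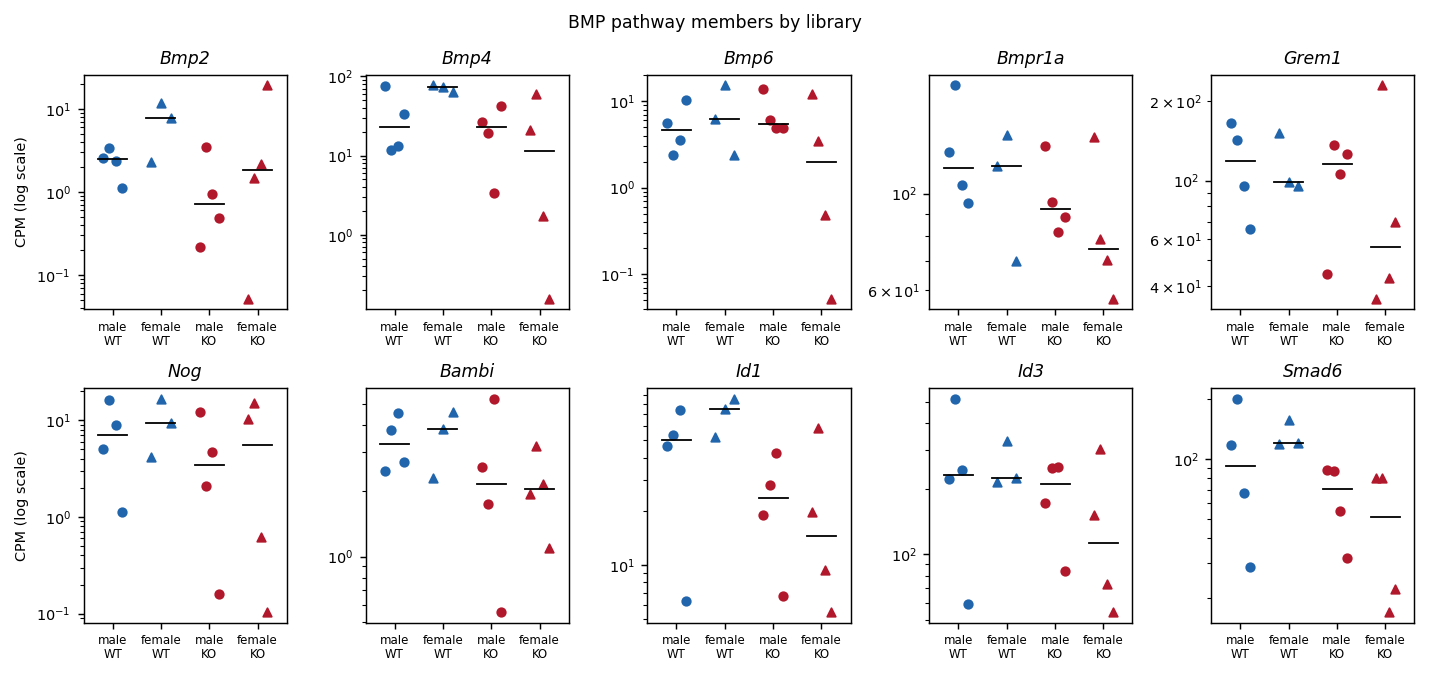
CPM (log scale) of the 10 genes in each library, by sex label and genotype. Circles are male-labelled and triangles female-labelled libraries, WT in blue and KO in red, and bars are group medians. Id1, Id3 and Smad6 were low in male WT 4, male KO 4, and female KO 3 and 4, and the genotypes overlapped in every panel.

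Among the targets, Id1 had the largest difference of the 10 genes. Id1 encodes an inhibitor of DNA binding that ties up basic helix-loop-helix factors, and it lies on chromosome 2 (152566218 to 152579544, plus strand). Its CPM was 46.4, 53.7, 74.1 and 6.33 in male WT libraries 1 to 4 and 52.5, 75.1 and 85.6 in female WT libraries 1 to 3. It was 19.2, 28.1, 42.5 and 6.68 in male KO libraries 1 to 4 and 19.8, 58.3, 9.38 and 5.47 in female KO libraries 1 to 4. Of the 8 KO libraries, 7 lay below the WT median of 53.7 CPM, and 1 lay below the lowest WT library, male WT 4. The mean was 56.3 ± 26.3 CPM in WT (SD, n = 7) and 23.7 ± 18.6 CPM in KO (SD, n = 8), a log2 fold change of -1.23 (SE 0.55, edgeR adjusted p = 0.191). Leaving out the male-labelled library of each near-identical pair gave -1.25 (adjusted p = 0.259), leaving out the female-labelled one gave -1.19 (adjusted p = 0.292), and leaving out the 3 libraries that went against their sex label gave -1.09 (adjusted p = 0.388).

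Id3, another inhibitor of DNA binding and a textbook BMP target, lies on chromosome 4 (135870808 to 135873066, plus strand). It ranged from 59.5 to 518 CPM in WT (median 224) and from 54.5 to 305 CPM in KO libraries (median 162). The lowest libraries were female KO 4, male WT 4, female KO 3 and male KO 4, so both genotypes held low libraries. The log2 fold change was -0.62 (SE 0.43, edgeR adjusted p = 0.394).

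Smad6, an inhibitory SMAD that BMP signalling induces and that blocks type I receptors, lies on chromosome 9 (63860341 to 63929793, minus strand). It had 117, 201, 67.8 and 28.6 CPM in male WT libraries 1 to 4 and 119, 156 and 121 CPM in female WT libraries 1 to 3. It had 88.3, 86.7, 55.1 and 31.7 CPM in male KO libraries 1 to 4 and 80.3, 80.2, 17.1 and 22.2 CPM in female KO libraries 1 to 4. All 8 KO libraries lay below the WT median of 119 CPM, 5 of the 7 WT libraries lay above every KO library, and male WT 3 and 4 fell within the KO range. The mean was 116 ± 56.1 CPM in WT (SD, n = 7) and 57.7 ± 30.2 CPM in KO (SD, n = 8), and the log2 fold change was -1.01 (SE 0.43, edgeR adjusted p = 0.174). It was -1.12 and -1.08 without the male-labelled or the female-labelled library of each near-identical pair (adjusted p = 0.191 and 0.228) and -1.09 without the 3 libraries against their label (adjusted p = 0.274).

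Bambi, a decoy receptor without a kinase domain that dampens BMP and TGF-beta signals, was a low-level transcript. It had 2.30 to 4.61 CPM in WT (median 3.81) and 0.557 to 5.30 CPM in KO libraries (median 2.05). Of the 8 KO libraries 5 lay below the lowest WT library, but male KO 3 was the highest of all 15. The log2 fold change was -0.57 (SE 0.38, edgeR adjusted p = 0.376).

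Of the 3 ligands, Bmp4 had the highest level per length and ranged most widely. It encodes a ligand that marrow stroma is known to make, and lies on chromosome 14 (46620250 to 46636745, minus strand). It had 76.0, 11.6, 13.1 and 33.3 CPM in male WT libraries 1 to 4 and 77.6, 72.7 and 62.9 CPM in female WT libraries 1 to 3. It had 26.8, 19.2, 3.36 and 42.6 CPM in male KO libraries 1 to 4 and 21.3, 59.7, 1.74 and 0.156 CPM in female KO libraries 1 to 4. All 8 KO libraries lay below the WT median of 62.9 CPM, yet male WT 2 and 3 were lower than 5 of them. The mean was 49.6 ± 29.5 CPM in WT (SD, n = 7) and 21.9 ± 21.1 CPM in KO (SD, n = 8), with a log2 fold change of -1.12 (SE 0.81, edgeR adjusted p = 0.421).

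Bmp2, a strong inducer of bone, had 1.13 to 11.9 CPM in WT (median 2.58) and 0.0524 to 19.2 CPM in KO libraries (median 1.21). Female KO 4 was the highest of the 15 libraries and female KO 1 the lowest, both in the same group. The log2 fold change was -0.63 (SE 0.80, edgeR adjusted p = 0.664), and -1.58 (adjusted p = 0.217) without female KO 4. Bmp6, known for iron control through the liver and for inducing bone, had 2.38 to 15.3 CPM in WT (median 5.56) and 0.0521 to 13.9 CPM in KO libraries (median 4.88). Its log2 fold change was the smallest of the 10 (-0.21, SE 0.74, edgeR adjusted p = 0.894), and it rose above 0 in male-labelled libraries alone (0.45) and without female WT 2 (0.24), female KO 3 (0.0021) or female KO 4 (0.021).

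Bmpr1a, the type I receptor for BMP2 and BMP4, varied least among the 10 genes. It had 70.1 to 177 CPM in WT (median 116) and 57.5 to 135 CPM in KO libraries (median 85.0), and 6 of 8 KO libraries lay below the WT median. The log2 fold change was -0.34 (SE 0.20, edgeR adjusted p = 0.329).

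The secreted antagonists differed in how far they ranged. Grem1, which binds BMP2 and BMP4 and marks a stromal progenitor population, had 65.7 to 165 CPM in WT (median 98.5) and 35.8 to 230 CPM in KO libraries (median 87.9). Female KO 2 was the highest of all libraries, and 3 KO libraries lay below the lowest WT library (log2 fold change -0.23, SE 0.38, edgeR adjusted p = 0.750). Nog, noggin, which seals off the receptor-binding faces of the ligand, had 1.12 to 16.8 CPM in WT (median 8.89) and 0.104 to 15.1 CPM in KO libraries (median 3.43). Its lowest libraries were female KO 4, male KO 4 and female KO 3, and the log2 fold change was -0.67 (SE 0.87, edgeR adjusted p = 0.671).

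Within male-labelled libraries 9 of 10 genes were below 0 and within female-labelled libraries 10 of 10. Each label held 1 library of each near-identical pair, and 3 libraries went against their label. The contrasts are therefore not independent of each other and do not compare the sexes. Without the male-labelled library of each pair the counts were 8 and 10 of 10, and without the female-labelled one 9 and 9. edgeR called 0 of 10 under either label (background 0% under both labels). At an unadjusted p under 0.05 and a lower level there were 0 of 10 in male-labelled libraries (background 4.52%) and 1 of 10, Smad6, in female-labelled libraries (background 7.75%). DESeq2 called 0 of 10 under each label (background 0.494% in male-labelled and 2.46% in female-labelled libraries), as did voom (background 0% and 0.273%). Smad6 had a log2 fold change of -0.66 (SE 0.59) in male-labelled and -1.40 (SE 0.63, edgeR adjusted p = 0.333) in female-labelled libraries. Id1 had -0.90 (SE 0.76) and -1.61 (SE 0.82), and Bmp4 -0.54 (SE 1.11) and -1.77 (SE 1.21). Bmp6 had opposite signs, 0.44 (SE 1.00) and -0.97 (SE 1.08). The difference between the labels passed the edgeR test for 0 of 10 genes, and 0 had an unadjusted p under 0.05 (background 0% adjusted, 1.41% unadjusted). DESeq2 (background 0.0116%) and voom (background 0%) likewise called 0 of 10. With standard errors of the difference between 0.43 and 1.82 on the log2 scale, only large differences between the labels could have been called.

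**Figure D3:**
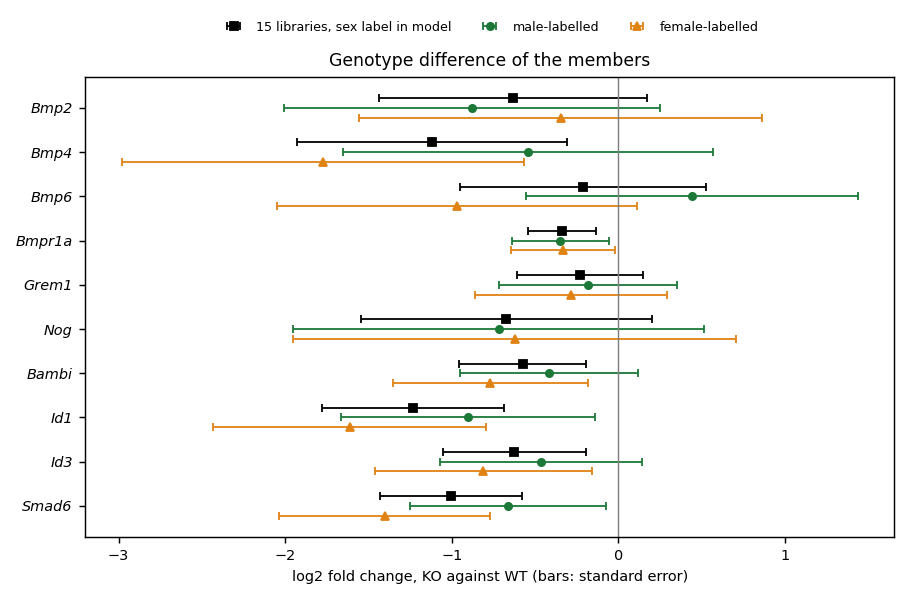
Log2 fold change of KO against WT for the 10 genes (horizontal axis), with bars for the standard error. Black squares are the fit to 15 libraries, green circles the contrast within male-labelled and orange triangles within female-labelled libraries. Id1 (-1.23), Bmp4 (-1.12) and Smad6 (-1.01) lay farthest below 0, and Bmp6 lay above 0 in male-labelled libraries.

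The levels of the other 9 genes were set against that of Id1 across libraries, as Pearson's r and Spearman's rho of log2 CPM. This was done over 13 libraries, without the male-labelled library of each near-identical pair, by permutation with 100000 resamples and with p not adjusted over the 9 genes, which were chosen with results known. As background, r with Id1 had a median of 0.0015 over 13199 genes with a mean of at least 1 CPM. Id3 had r = 0.91 and rho = 0.76 (permutation p = 8.0e-05 and 0.00329), and 0.0303% of those genes, Id3 included, had an r as high. Nog had r = 0.89 and rho = 0.80 (permutation p = 0.00012 and 0.00181), an r reached by 0.0909% of genes. Smad6 had r = 0.85 and rho = 0.75 (permutation p = 0.00039 and 0.00447), an r reached by 0.28% of genes, and Bambi r = 0.76 and rho = 0.75 (permutation p = 0.0018 and 0.00407), an r reached by 1.62%. Without the 2 libraries farthest from the median r became 0.84 for Id3, 0.81 for Nog, 0.80 for Smad6 and 0.60 for Bambi. Within the sex labels, r was 0.91 in male-labelled (n = 6) and 0.96 in female-labelled libraries (n = 7) for Id3. It was 0.89 and 0.88 for Nog, 0.76 and 0.92 for Smad6, and 0.72 and 0.90 for Bambi. Within the genotypes, r was 0.84 in WT (n = 6) and 0.97 in KO libraries (n = 7) for Id3. It was 0.88 and 0.91 for Nog, 0.80 and 0.81 for Smad6, and 0.58 and 0.81 for Bambi. The permutation shuffled libraries across genotypes, so its p does not separate a shared genotype difference from a relation between genes. The part of genotype, depth and macrophage content in these relations was not tested.

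For the ligands, the receptor and Grem1 the permutation p was above 0.05. Bmp4 had r = 0.50 and rho = 0.49 with Id1 (permutation p = 0.0738 and 0.0924), an r reached by 14.7% of genes, and r fell to 0.015 without the 2 farthest libraries, female KO 3 and 4. Its r was -0.74 in male-labelled (n = 6) and 0.95 in female-labelled libraries (n = 7). Bmp6 had r = 0.40 and rho = 0.088 (permutation p = 0.176 and 0.780), an r reached by 22.2% of genes, with -0.72 and 0.77 within the labels and -0.38 without the 2 farthest libraries, again female KO 3 and 4. The difference of r between the labels was not tested. Grem1 had r = 0.49 and rho = 0.39 (permutation p = 0.0867 and 0.188), an r reached by 15.3% of genes, and 0.52 without the 2 farthest libraries. Bmpr1a had r = 0.40 and rho = 0.29 (permutation p = 0.178 and 0.344), an r reached by 22% of genes, and Bmp2 r = 0.20 and rho = 0.34 (permutation p = 0.520 and 0.255), an r reached by 36.4%. For Bmp2, r rose to 0.64 without the 2 farthest libraries, and for Bmpr1a it fell to 0.15. Within the labels r was 0.38 and 0.64 for Grem1, 0.41 and 0.46 for Bmpr1a, and 0.67 and 0.029 for Bmp2. Within WT (n = 6) and KO libraries (n = 7) r was 0.068 and 0.51 for Bmp4, and -0.41 and 0.61 for Bmp6. It was 0.59 and 0.49 for Grem1, 0.11 and 0.35 for Bmpr1a, and 0.73 and -0.27 for Bmp2.

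**Figure D4:**
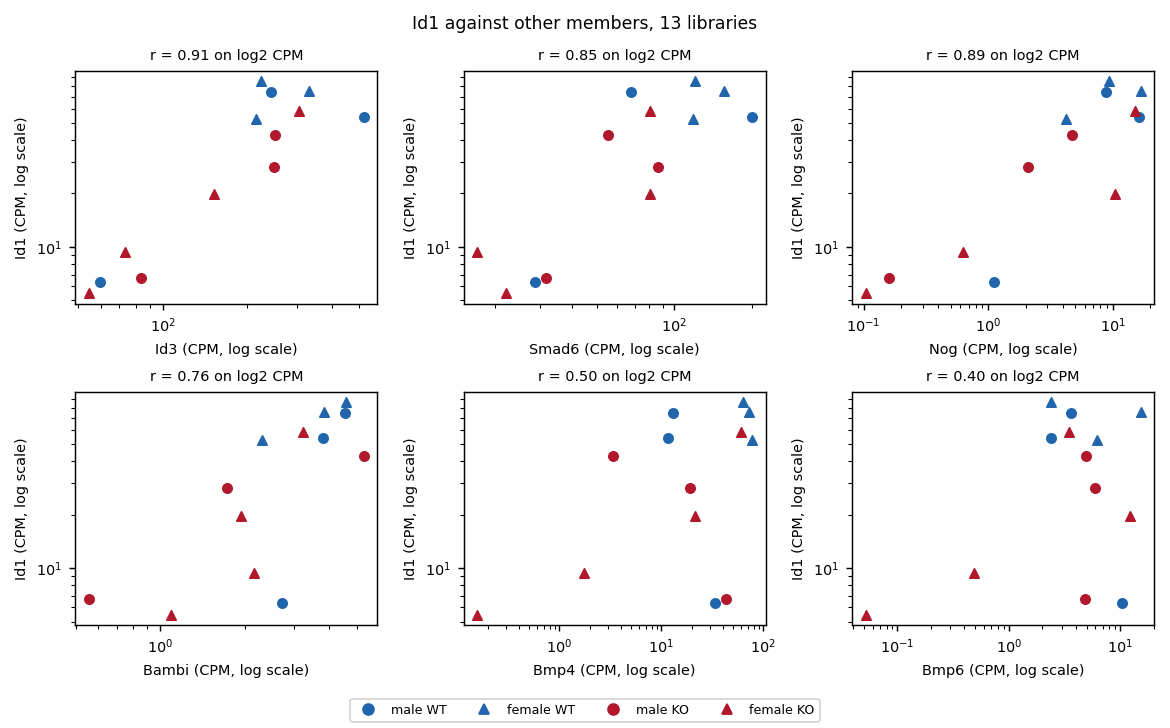
CPM of Id1 (vertical, log scale) against CPM of 6 other genes (horizontal, log scale) in 13 libraries. Circles are male-labelled and triangles female-labelled, WT in blue and KO in red. Pooled r was 0.91 for Id3, 0.89 for Nog, 0.85 for Smad6 and 0.76 for Bambi, and 0.50 for Bmp4 and 0.40 for Bmp6, where female KO 3 and 4 lie far to the left.

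Among 13200 genes with a mean of at least 1 CPM, those most like Id1 over the 15 libraries by Pearson correlation of log2 CPM were Dlx5 (0.92), C130013H08Rik (0.91) and Id3 (0.91). The 15 include both libraries of each near-identical pair. Over the 13 libraries used above, r was 0.93, 0.91 and 0.91 for the same genes, and 4 genes, Id3 included, had an r as high as that of Id3. Dlx5 encodes a homeobox factor of the bone lineage that BMPs are known to induce. These are given as a description.

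Of the wider BMP pathway list of 65 genes, 55 were tested, and 46 of these had a log2 fold change below 0 (51.7% of all genes), with a median of -0.57. edgeR called 3 of 55 lower, Chrdl1, Smad7 and Id4, and 0 higher (background 0.75% lower and 0.546% higher). DESeq2 called 6 of 55 lower, the same 3 with Crim1, Smad9 and Msx1 (background 6.43%), and voom 5 of 55, the same 3 with Crim1 and Msx1 (background 4.12%), and 0 were higher by either. The 10 untested genes had a mean of at most 0.161 CPM. In fits with fewer libraries, 0 genes of the list passed the test without the male-labelled or without the female-labelled library of each near-identical pair, or without the 3 libraries against their sex label. Leaving out 1 library at a time left 0 calls in 9 of 15 fits (male WT 1, male WT 2, male KO 1, male KO 3, female WT 1, female WT 2, female WT 3, female KO 2 or female KO 3). It left 1 call without male KO 2, male KO 4, female KO 1 or female KO 4, and 4 calls without male WT 3 or male WT 4.

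**Figure D5:**
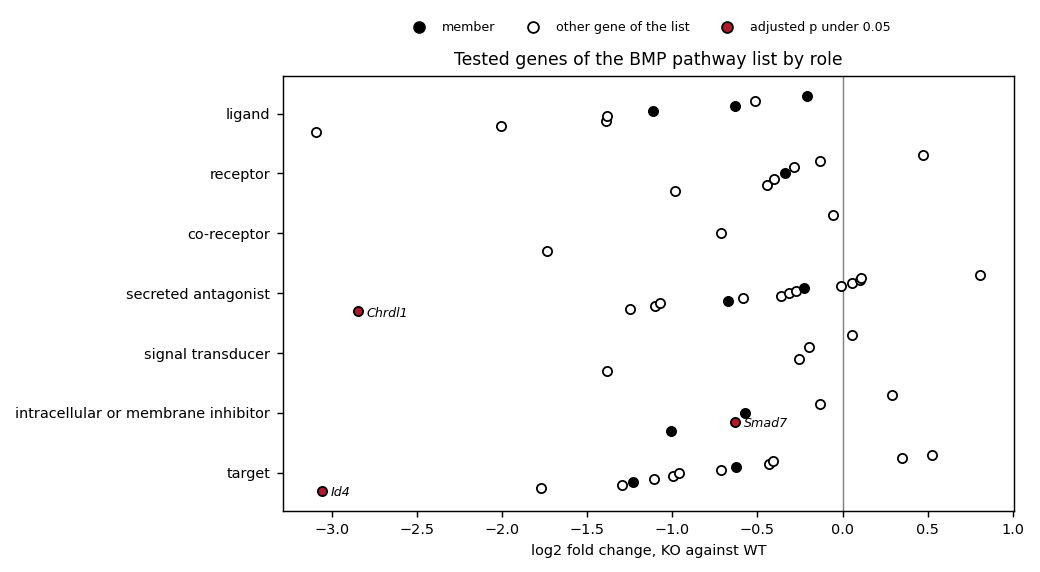
Log2 fold change of KO against WT (horizontal axis) of the 55 tested genes of the BMP pathway list, grouped by role. Black points are the 10 genes described in detail, white points other genes of the list, and red points those with an edgeR adjusted p under 0.05. Of the 55, 46 lay below 0, and Chrdl1, Smad7 and Id4 passed the test.

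Id4, the fourth inhibitor of DNA binding, was lower in KO cultures. It had 298, 346, 40.5 and 107 CPM in male WT libraries 1 to 4 and 315, 310 and 272 CPM in female WT libraries 1 to 3. It had 31.7, 89.8, 27.1 and 2.24 CPM in male KO libraries 1 to 4 and 28.1, 30.2, 12.1 and 14.3 CPM in female KO libraries 1 to 4. Male KO 2 lay above male WT 3, and otherwise the genotypes were apart (log2 fold change -3.06, SE 0.63, edgeR adjusted p = 0.0397). It was -3.02 and -2.97 without the male-labelled or the female-labelled library of each near-identical pair (adjusted p = 0.0835 and 0.106), and -2.94 (adjusted p = 0.155) without the 3 libraries against their label.

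Chrdl1, a chordin-like antagonist that binds BMPs outside the cell, was also lower in KO cultures, with 5.97 to 77.9 CPM in WT and 0.972 to 16.1 CPM in KO libraries. Male WT 3 and female WT 3 lay within the KO range, and male WT 4 barely above it (log2 fold change -2.85, SE 0.63, edgeR adjusted p = 0.0439). The value was -2.89 and -2.72 without either library of each pair (adjusted p = 0.0864 and 0.111), and -3.03 without the 3 libraries (adjusted p = 0.152). Smad7, an inhibitory SMAD that acts on both the BMP and the TGF-beta branch, had 73.5 to 135 CPM in WT and 65.4 to 108 CPM in KO libraries (log2 fold change -0.63, SE 0.14, edgeR adjusted p = 0.0412). Female KO 4 was the highest KO library and the overlap came from it, male KO 1, male KO 3 and male WT 4. Without the same libraries Smad7 had -0.62, -0.56 and -0.62 (adjusted p = 0.0864, 0.116 and 0.158).

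By role, 8 of 8 tested ligands were below 0, with 0 called. Bmp5, the ligand with the highest mean CPM, had 17.3 to 183 CPM in WT and 0.136 to 121 CPM in KO libraries (log2 fold change -2.0, SE 0.88, edgeR adjusted p = 0.188). Of the receptors, 6 of 7 were below 0 with 0 called, and the type II receptor Bmpr2 had -0.40 (SE 0.14, adjusted p = 0.112 by edgeR). Of the co-receptors, 3 of 3 were below 0 with 0 called. Eng, endoglin, had 10.6 to 472 CPM in WT and 4.34 to 368 CPM in KO libraries (log2 fold change -1.74, SE 0.82, edgeR adjusted p = 0.216), and Rgmb -0.057 (SE 0.11, adjusted p = 0.785).

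Secreted antagonists split most evenly, with 11 of 15 below 0 and 1 called, Chrdl1. Fstl1, a follistatin-like protein with the highest mean CPM among them, had 2051 to 3403 CPM in WT and 484 to 4439 CPM in KO libraries (log2 fold change -0.27, SE 0.32, edgeR adjusted p = 0.632). Crim1, which tethers BMPs at the surface of the producing cell, had -0.59 (SE 0.19, edgeR adjusted p = 0.0921). Of the signal transducers 3 of 4 were below 0 with 0 called: the common partner Smad4 had 0.058 (SE 0.12, adjusted p = 0.799) and Smad5 -0.26 (SE 0.12, adjusted p = 0.201).

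Of the intracellular or membrane inhibitors 4 of 5 were below 0, with Smad7 called, and the ubiquitin ligase Smurf2 had -0.13 (SE 0.19, edgeR adjusted p = 0.703). Of the targets 11 of 13 were below 0, with Id4 called. Alpl, alkaline phosphatase of bone-forming cells, had 4.13 to 320 CPM in WT and 9.23 to 472 CPM in KO libraries (log2 fold change -0.43, SE 0.83, edgeR adjusted p = 0.785). Id2, which carried the full element printed above, had 86.0 ± 34.9 CPM in WT (SD, n = 7) and 134 ± 78.6 CPM in KO libraries (SD, n = 8), and was one of the targets above 0 (log2 fold change 0.52, SE 0.30, edgeR adjusted p = 0.305).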

How the data were processed

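Bulk RNA-sequencing libraries were made from 15 MSC cultures. The authors amplified full-length cDNA from poly(A) tails, filtered reads of 150 bases with fastp 0.23.1, mapped them with STAR 2.7.9a to GRCm39 and counted them by strand with featureCounts (Subread 2.0.1). The authors deposited raw read counts for each gene. The female-labelled libraries were the shallower ones, and the part of depth in the precision of the estimates was not tested.

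Genotypes were compared with edgeR 4.0.16 in R 4.3.3 (TMM, filterByExpr, quasi-likelihood test, sex label and genotype in the model). The SE of an edgeR fit was computed as the absolute log2 fold change divided by the square root of the F statistic. Contrasts within a sex label were fitted with 1 term per group. DESeq2 1.42.0 and limma 3.58.1 (voom) were alternatives, as were another normalization, other filters, fewer libraries, no sex term and a replicate block. Correlations used log2 CPM with a prior count of 2, in Python 3.11.15 with SciPy 1.17.1. The statistics were tested on simulated counts of independent libraries with the same spread for every gene. The simulation held no near-identical pairs, mismatched sex labels or differences in cell content, so it cannot show how the tests behave under these. Positions, exon lengths and sequences came from GENCODE M39 on GRCm39, and the motif letters from general knowledge.

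The 10 genes, the pathway list, the marker lists and the tests were chosen with earlier results of these data known. Genes named are the 10, other genes of the list past the threshold, the 2 genes of each role with the highest mean CPM, the 3 genes most like Id1, Slc6a6, and markers. Genes given only by name as calls of another tool, and Id2, were named after their values were seen. The sequence of some genes is not reported here.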

Additional observations from a re-analysis of the deposited data

Results flagged for a closer look

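In 3 groups of 4 libraries 1 library stood apart from the rest, by a gap to the nearest library that took up most of the group's range (Dixon's test). Of 39 groups tested, 1.95 would be marked by chance, which marks about 1 in 20.

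Bmp2 had 19.2 CPM in female KO 4, against 0.0524 to 2.15 CPM in the other female KO libraries (gap 0.890 of the range). Smad7 had 108 CPM in the same library, against 65.4 to 70.1 CPM in the others (0.888). Bmp6 had 13.9 CPM in male KO 1, against 4.87 to 5.99 CPM in the other male KO libraries (0.876), and male KO 1 is one of the near-identical libraries. Female KO 4 also had the highest macrophage sum of all libraries, 20053 CPM, and the lowest MSC sum, 2603 CPM, and their part in these values was not tested.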

How the results depend on the processing

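None of the 10 genes passed the test (0 calls) under any alternative run, and 262 of 266 of their fold changes stayed below 0. The count of all genes called was 223, and 2078 with DESeq2, 1319 with voom, 446 without the sex term, 74 without a filter, 2 and 7 without the male-labelled or female-labelled library of each near-identical pair, and 0 without the 3 libraries against their label or in either sex label alone. The count for the BMP pathway list was 3, and 6 with DESeq2, 5 with voom, 1 without a filter, and 0 in those fits to fewer near-identical, mismatched or single-label libraries. Leaving out 1 library at a time gave 12 (without female WT 2) to 1255 (without male WT 3) genes and 0 to 4 of the list. Fits with fewer libraries have less power, yet the count of genes also rose without male WT 3 (1255), female KO 1 (296), male KO 2 (245) or male WT 4 (242). The cause of these changes was not tested.

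Leaving out 1 library at a time, Bmp6 ranged from -0.73 to 0.24 and Smad4 from -0.00093 to 0.11. Bmp6 reversed to 0.45 in male-labelled libraries alone, 0.24 without female WT 2, 0.0021 without female KO 3 and 0.021 without female KO 4. Rgmb reversed to 0.0095 without the female-labelled library of each pair, Fstl1 to 0.094 and Smad4 to -0.15 in male-labelled libraries alone, and Smad4 to -0.00093 without female KO 4. The cause was not tested. With a filter of at least 10 counts in every library, Bmp2, Bmp4, Bmp6 and Nog were not tested.

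With the replicate number as a block, 259 genes and 2 of the list (Smad7 and Id4) passed, and Bmp2 moved to -2.07 (adjusted p = 0.0730 by edgeR). In the same fit Id1 had -1.09 (SE 0.34, edgeR adjusted p = 0.0979). The labels give only that number, which the main model does not use. Of 7 same-numbered pairs, 5 had a correlation of deviations over 0.1 (range -0.040 to 0.62). Of 14 libraries, 11 correlated best with their own number, among the 3 or 4 libraries of the other genotype under the same sex label. Male WT 3 and male KO 3 were the closest pair after the near-identical ones (spread of log2 ratios 0.289). Whether the number marks a batch or a pairing was not tested. Over 15 in place of 13 libraries, added after the data were seen, Bmp4 passed an unadjusted permutation p of 0.05 in its correlation with Id1 (0.0472 against 0.0738), and the other 8 genes kept their side.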
